A study of Mus musculus with 2 samples.

Results

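Ketone bodies, lactate and glucose were represented by 9 genes in the hippocampus of male mice at postnatal day 14. Bdh1, Oxct1 and Acat1 encode the enzymes that burn ketone bodies. Slc16a1 and Slc16a7 encode monocarboxylate transporters, Ldha and Ldhb the subunits of lactate dehydrogenase, and Slc2a1 and Slc2a3 glucose transporters. The genes were chosen by symbol for their place in the fuel supply of the suckling brain, and the rule uses no measured value. All 9 were found among the 55536 genes of the tables, with 54 transcripts between them.

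Total RNA was sequenced from 1 group of 2 biological replicates, both labelled as a layer of the hippocampus of male B6CASTF1/J mice aged 14 days, with no treatment named. B6CASTF1/J is a first-generation cross of the inbred strains C57BL/6J and CAST/EiJ. The label of each replicate lists 3 males of its own, and pooling of their RNA is not stated there. Each library was made from 300 ng of RNA with spike-in RNAs added, and the spike-in label names stranded libraries with reduced ribosomal RNA. There was no second condition, so the levels within the tissue, the ratios between genes and the differences between the libraries are described. Differences are given as replicate 2 over replicate 1, and a value with ± is a mean with its SD (n = 2).

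The suckling brain draws on more than glucose. Milk is rich in fat, and the liver of the pup turns it into β-hydroxybutyrate and acetoacetate, which cross into the brain through monocarboxylate transporters and are oxidised in mitochondria. Lactate takes the same transporters and must pass lactate dehydrogenase to become pyruvate. Glucose enters across the blood-brain barrier through GLUT1, the product of Slc2a1, and reaches neurons mostly through GLUT3, the product of Slc2a3.

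The gene tables held 31755544 counts in replicate 2 and 29144848 in replicate 1. A count of 0 allows up to 3 counts, which is 0.0945 CPM (counts scaled to the library total) in replicate 2 and 0.103 in replicate 1, and covers counting error only. Excitatory neuron markers led the 13 marker lists, at a summed 2909 TPM (length-scaled transcript abundance) in replicate 2 and 2693 in replicate 1, with Nrgn among them. The libraries differed most in 4 lists, all lower in replicate 2, with median log2 ratios between -1.33 and -0.51. Medians of the other lists lay between -0.06 and 0.14. Microglia markers, at the upper end, summed to 124 TPM in replicate 2 and 105 in replicate 1. In bulk tissue fewer cells of a type and less RNA per cell cannot be told apart. Markers of myelinating oligodendrocytes summed to 943 TPM in replicate 2 and 1771 in replicate 1, and all 8 were lower in replicate 2. Choroid plexus markers summed to 49.6 and 92.2 TPM in replicates 2 and 1, thalamic markers to 24.8 and 45.3, and red blood cell markers to 561 and 732.

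Ketone oxidation genes were abundant, and Oxct1 had the highest mean TPM of the 9 in the gene tables. Its lead over Ldhb did not exceed the spread of the libraries. In TPM of coding transcripts alone, Oxct1 had 154 in replicate 2 and 148 in replicate 1. That was below Ldhb, at 195 and 193, and Ldha, at 177 and 156. The Ldhb sum includes Ldhb-202, of 437 bases with 95 coding bases, at 25.8 and 37.7 TPM. Of the leading transcripts, Ldhb-201 had 167 and 155 TPM in replicates 2 and 1, against 154 and 147 for Oxct1-201. Levels are given in TPM, which divides counts by transcript length, so that genes can be set side by side. The 9 genes ranked between 249 and 3915 among 12911 protein-coding genes that reached a TPM of 1 in both libraries. Of the 9, 7 lay above the 75th percentile of those genes, whose median was 15.2 TPM.

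Oxct1 encodes succinyl-CoA:3-oxoacid CoA transferase, the mitochondrial enzyme that activates acetoacetate and that liver cells lack. It lies on chromosome 15 (4026383 to 4155344, mm10, plus strand) and had 240 TPM in replicate 2 and 206 TPM in replicate 1. These values rested on 12257 and 10778 counts in replicates 2 and 1. At 223 ± 24.4 TPM it ranked 249.

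Bdh1 encodes the mitochondrial enzyme that turns β-hydroxybutyrate into acetoacetate, 1 step before Oxct1. It lies on chromosome 16 (31422280 to 31458901, plus strand) and had 107 TPM in replicate 2 and 86.2 TPM in replicate 1. Acat1 encodes the thiolase that splits acetoacetyl-CoA, the step after Oxct1, and lies on chromosome 9 (53580522 to 53610382, minus strand). It had 41.1 TPM in replicate 2 and 39.4 TPM in replicate 1. The 3 enzymes of 1 route thus did not share a level. Oxct1 exceeded Bdh1 by 1.21 ± 0.06 and Acat1 by 2.46 ± 0.12 on the log2 scale of TPM, which is 2.31-fold and 5.52-fold. Both ratios had the same sign in both libraries and exceeded 0.5 and 2 SD, the rule used here to set a pair of genes apart.

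Among genes for enzymes of the cytosol, Aacs, which activates acetoacetate for lipid synthesis, had 35.2 ± 4.15 TPM. The thiolase gene Acat2 had 34.7 ± 0.15 TPM. Oxct2a and Oxct2b, relatives of Oxct1 known from testis, stayed under 1 TPM.

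**Figure D1:**
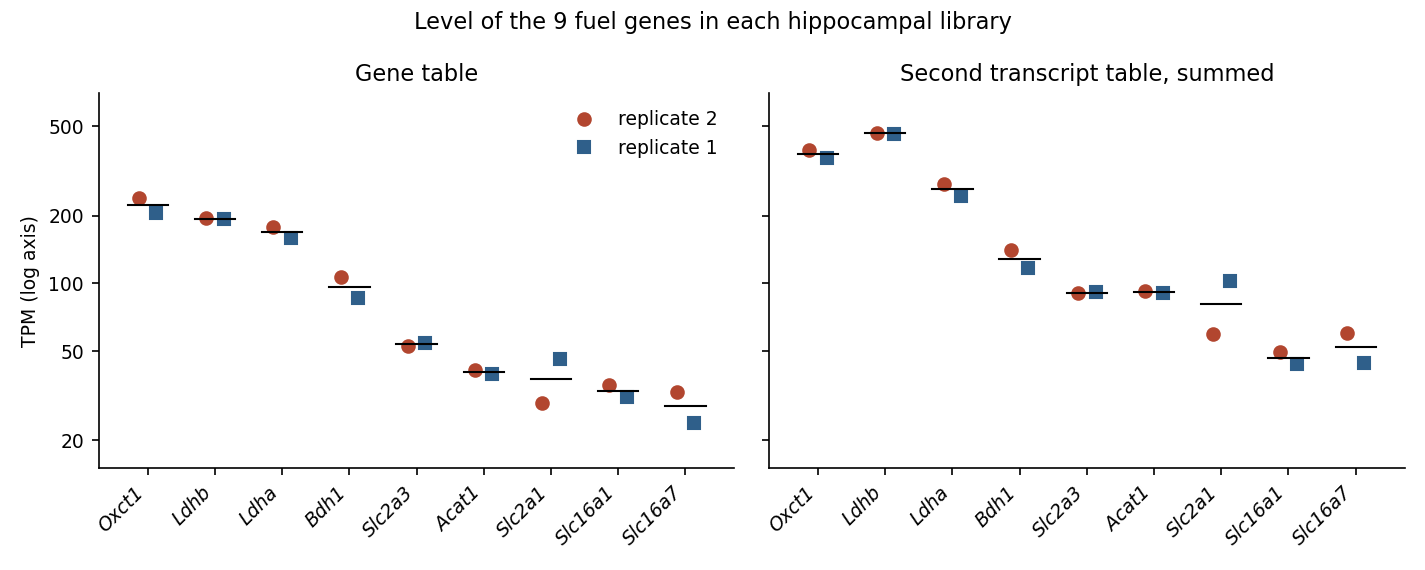
Level of each of the 9 genes in TPM on a log axis, in the gene tables (left) and summed from the second transcript tables (right), with 1 point per library and a line at the mean. Oxct1, Ldhb and Ldha lie highest in both panels, and Slc2a1 has the widest gap between its libraries in the gene tables relative to its level, with 29.5 TPM in replicate 2 and 46.0 TPM in replicate 1.

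Monocarboxylate transporters carry ketone bodies and lactate across membranes, and both genes measured here had a lower TPM in each library than the ketone and lactate enzyme genes. Slc16a1 encodes MCT1, found on endothelium, astrocytes and oligodendrocytes. It lies on chromosome 3 (104638668 to 104658462, plus strand) and had 35.4 TPM in replicate 2 and 31.1 TPM in replicate 1. Slc16a7 encodes MCT2, the high-affinity transporter of neurons, and lies on chromosome 10 (125219270 to 125389465, minus strand). It had 32.8 TPM in replicate 2 and 24.0 TPM in replicate 1. Slc16a7 was at -0.24 ± 0.19 relative to Slc16a1 on the log2 scale of TPM, which does not set the pair apart, and the second transcript tables gave 0.15 ± 0.19, of the opposite sign.

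Slc16a3 encodes MCT4, a low-affinity transporter used by glycolytic cells to release lactate. It had 1.35 TPM in replicate 2 and 1.37 TPM in replicate 1, on 41 and 38 counts. Slc16a1 exceeded it by 4.60 ± 0.15 on the log2 scale of TPM, or 24.2-fold. Of the genes for partner proteins, Bsg and Nptn were far above the transporter genes in TPM, and Emb was below Slc16a1 and Slc16a7. Bsg, whose product basigin brings MCT1 to the cell surface, had 315 ± 33.2 TPM, and its relative Nptn had 347 ± 1.70 TPM. Emb, a partner of MCT2, had 11.0 ± 0.30 TPM. Slc16a8, Slc5a8 and Slc5a12, which also carry monocarboxylates, stayed under 1 TPM.

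Lactate dehydrogenase is a tetramer of the M subunit from Ldha and the H subunit from Ldhb. The M form is associated with making lactate and the H form with using it. Ldhb lies on chromosome 6 (142490249 to 142507957, minus strand) and had 195 TPM in replicate 2 and 193 TPM in replicate 1. Ldha lies on chromosome 7 (46841475 to 46855627, plus strand) and had 179 TPM in replicate 2 and 158 TPM in replicate 1. Both subunits were therefore abundant and close to each other. Ldhb took 52.2% of their summed TPM in replicate 2 and 55.0% in replicate 1, and the log2 ratio of Ldhb to Ldha was 0.21 ± 0.11. The second transcript tables placed Ldhb higher, at a log2 ratio of 0.84 ± 0.12, which does set the pair apart. Of the other genes of the family, Ldhd, which acts on D-lactate, had 2.30 ± 0.41 TPM. Ldhal6b had 0.59 ± 0.16 TPM, and the testis form Ldhc had 0 counts in both libraries.

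How far reads can tell these relatives apart was read from their sequences. Coding sequences of Ldhb and Ldha were identical at 71.5% of 996 aligned bases, with a longest identical run of 18 bases and no shared stretch of 31 bases. The 90-base stretch in which they are most alike is shown, 77 bases of it identical, with the differing bases in capitals. It lies at chr6:142498540-142498629 on the minus strand for Ldhb and at chr7:46850227-46850316 on the plus strand for Ldha (mm10, GENCODE M21 transcripts).
Ldhb: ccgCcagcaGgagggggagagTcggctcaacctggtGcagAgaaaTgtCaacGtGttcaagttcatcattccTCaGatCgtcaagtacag
Ldha: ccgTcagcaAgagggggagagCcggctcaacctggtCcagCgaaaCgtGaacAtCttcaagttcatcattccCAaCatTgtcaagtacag
Differing bases are spread along the whole stretch.

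Processed pseudogenes shared more sequence with the dehydrogenases than the dehydrogenases shared with each other. Of all 31-base stretches in Ldhb transcripts, 33.0% also occur in transcripts of other genes, all in the pseudogene Gm5514. Gm5514 was assigned 87.9 counts in replicate 2 and 85.0 in replicate 1, against 4539 and 4031 for Ldhb. Of Ldha stretches 19.6% occur elsewhere, most often in the pseudogenes Gm5452, Gm9247 and Ldha-ps2, which had between 7.81 and 37.6 counts in a library. The deposited posterior SD, which measures how uncertainly reads were assigned, was 4.12 counts for Ldhb and 0.68 for Ldha in replicate 2. It was 0 for the other 7 genes, and the share of common stretches was at most 2.33% for them, in Slc2a3.

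The glucose transporter genes, like the monocarboxylate transporter genes, had a lower TPM than Bdh1 in both libraries. Slc2a3 lies on chromosome 6 (122727809 to 122801640, minus strand) and had 52.8 TPM in replicate 2 and 54.3 TPM in replicate 1. Slc2a1 lies on chromosome 4 (119108711 to 119137983, plus strand) and had 29.5 TPM in replicate 2 and 46.0 TPM in replicate 1. Slc2a3 was above Slc2a1 in both libraries, by log2 ratios of TPM of 0.84 in replicate 2 and 0.24 in replicate 1. The mean of 0.54 ± 0.43 does not exceed 2 SD. In the second transcript tables the order was not the same in both libraries, with 0.60 in replicate 2 and -0.17 in replicate 1. Slc2a1 set against Slc16a1, both genes of the blood-brain barrier, gave 0.15 ± 0.59 and changed sign between the libraries.

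Slc2a3 and Slc2a1 coding sequences were identical at 67.7% of aligned bases, and those of Slc16a7 and Slc16a1 at 62.5%. Neither pair shared a stretch of 31 bases, and the longest identical run was 20 bases in each.

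Other glucose carriers were lower than both. Slc2a13, a proton-coupled myo-inositol transporter, had 24.5 ± 4.15 TPM, Slc2a6 had 20.2 ± 0.83 TPM and Slc2a8, an intracellular carrier, had 10.3 ± 0.28 TPM. Slc2a5, a fructose carrier known from microglia in brain, had 2.71 ± 0.67 TPM. Slc2a4, the insulin-responsive GLUT4, had 0.94 TPM in replicate 2 and 1.50 TPM in replicate 1. The kidney cotransporter Slc5a2 had 0 counts in both libraries and in both quantifications. The liver form Slc2a2 had 0 counts in the gene tables, but 6 in replicate 2 and 8 in replicate 1 in the second tables, and Slc2a10 and Slc5a1 stayed under 1 TPM.

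Ordered by mean TPM, the 9 genes ran Oxct1, Ldhb, Ldha, Bdh1, Slc2a3, Acat1, Slc2a1, Slc16a1 and Slc16a7. Of the 8 steps between neighbours, 3 exceeded the spread of the libraries. Ldha was above Bdh1 by 0.81 ± 0.10, Bdh1 above Slc2a3 by 0.84 ± 0.25 and Slc2a3 above Acat1 by 0.41 ± 0.07 on the log2 scale of TPM. The steps from Oxct1 to Ldhb and from Ldhb to Ldha did not, nor did those from Acat1 to Slc2a1, Slc2a1 to Slc16a1 and Slc16a1 to Slc16a7. Coding transcripts alone brought Bdh1 closer to Slc2a3. Bdh1 then had 69.0 TPM in replicate 2 and 56.4 TPM in replicate 1, and Slc2a3 had 50.1 and 49.9 TPM. The Bdh1 sum includes the partial transcript Bdh1-206, with 796 coding bases, at 20.9 and 17.2 TPM. Bdh1-203 and Bdh1-202, each with 1029 coding bases, had 32.4 and 15.7 TPM in replicate 2 and 29.8 and 9.39 in replicate 1. Slc2a3-201 had 45.2 and 45.8 TPM in replicates 2 and 1. The size of this step thus depends on which transcripts are counted. The second transcript tables placed Ldhb first at 466 ± 2.75 TPM and Oxct1 next at 378 ± 22.0 TPM. They also turned the step between Slc2a3 and Acat1, at 91.0 ± 1.04 and 91.9 ± 1.40 TPM, where Acat1 had 40.3 ± 1.18 TPM in the gene tables. Counts of Acat1 were alike, at 2716 and 2270 in replicates 2 and 1 of the gene tables and 2699 and 2281 in the second. Those of Ldhb were 4539 and 4031 in the gene tables and 4659 and 4191 in the second. With 2 libraries, likeness of pattern across samples has no meaning, and no gene is named as most alike.

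**Figure D2:**
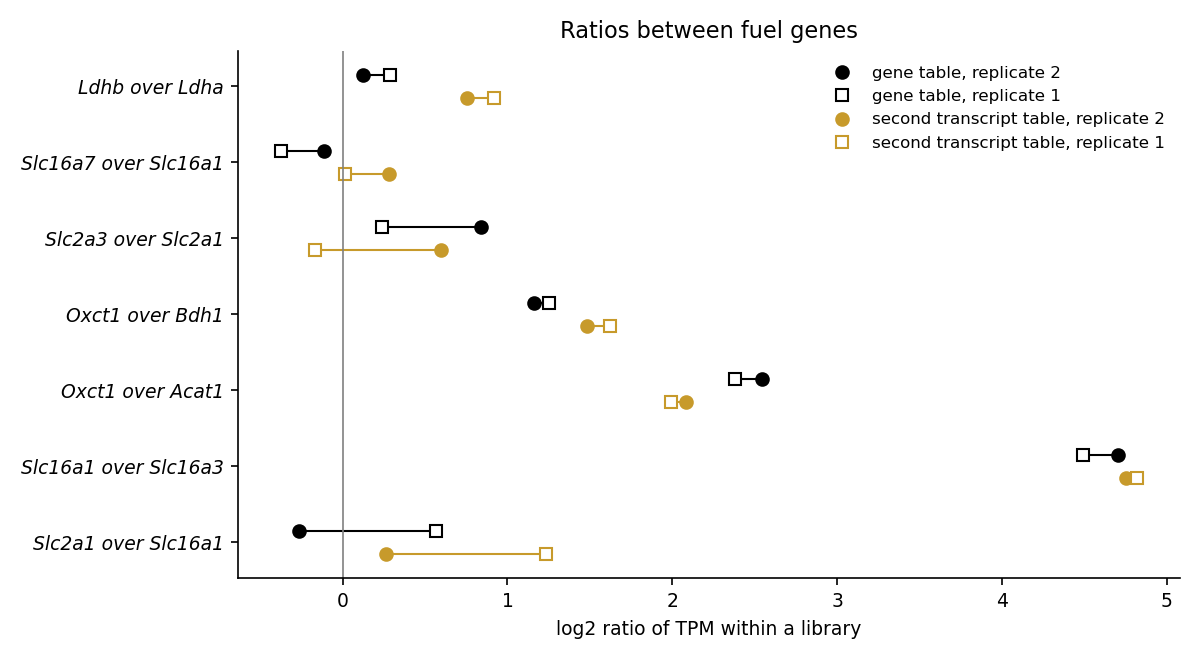
Log2 ratio of TPM within a library for 7 pairs of genes, with replicate 2 as circles and replicate 1 as squares, in the gene tables (black) and the second transcript tables (yellow). The ratios of Oxct1 to Bdh1 and Acat1 and of Slc16a1 to Slc16a3 stay right of 0.5 in all values, and those of Slc16a7 to Slc16a1 lie between -0.37 and 0.28.

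Pyruvate is where glucose and lactate meet on the way into mitochondria. Genes of that step were well expressed, led by Pdha1 and Pdhb, subunits of the first enzyme of the pyruvate dehydrogenase complex, at 134 ± 3.37 and 87.9 ± 0.75 TPM. Mpc1, a subunit of the mitochondrial pyruvate carrier, had 70.4 ± 4.37 TPM and Dlat, the acetyltransferase of the complex, 62.9 ± 5.06 TPM. All 14 genes of that list were above 1 TPM. Receptors that sense these fuels were low. Hcar1, the lactate receptor, Hcar2, the β-hydroxybutyrate receptor, and Ffar3 stayed under 1 TPM, on at most 18 counts each. Fuel-responsive regulators were higher, with 27.4 ± 0.18 TPM for the hypoxia factor Hif1a and 21.7 ± 1.22 TPM for Txnip, which limits glucose uptake. Ppargc1a, a coactivator of mitochondrial genes, had 21.1 ± 0.10 TPM, and Arrdc4, a relative of Txnip, had 11.9 ± 0.33 TPM.

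**Figure D3:**
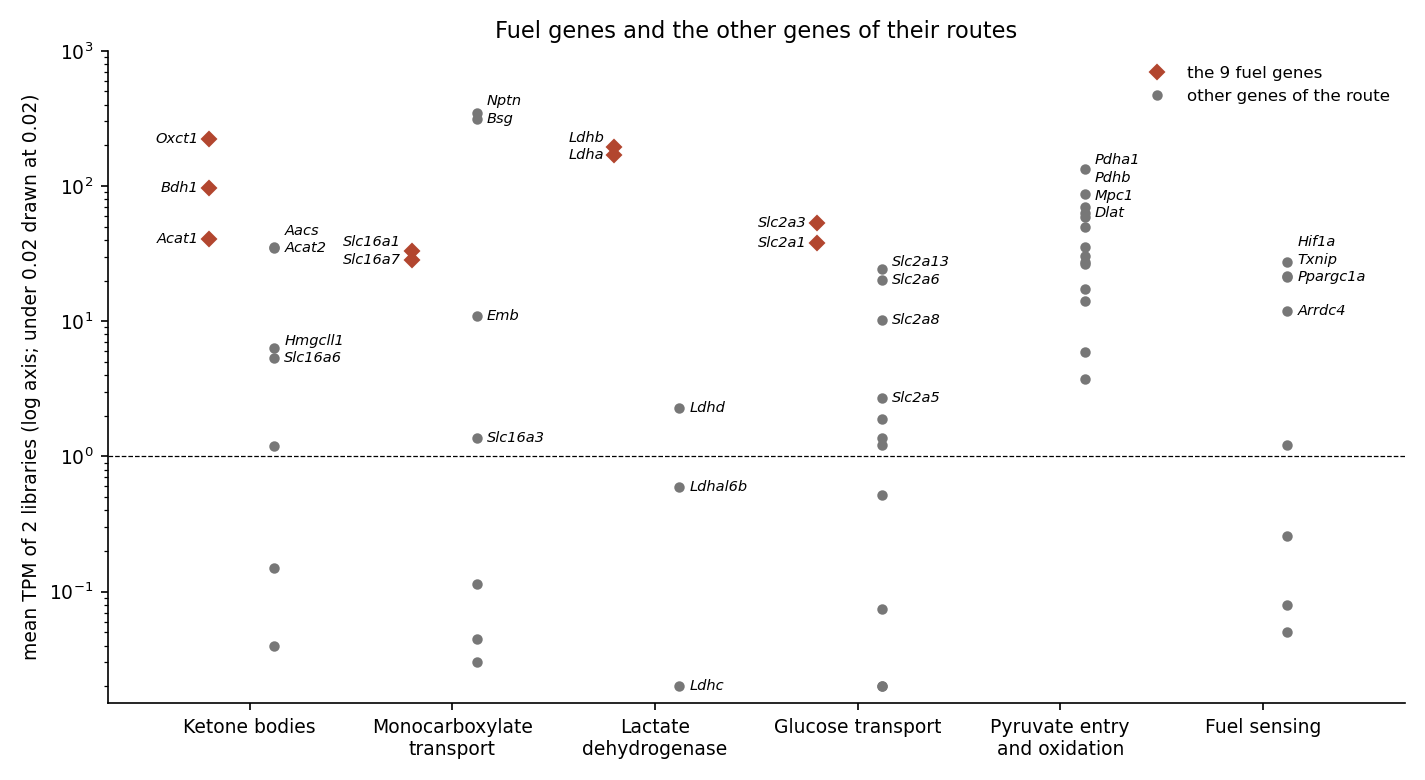
Mean TPM of 2 libraries on a log axis for the 9 genes (diamonds) and 50 other genes of their routes (circles), with a dashed line at 1 TPM and names for the 9 and for up to 4 of the highest in each list. Bsg and Nptn lie above all transporters, and 14 of the 50 lie under the line.

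Rounded counts of each gene were compared between the libraries by a two-sided exact binomial test, adjusted by Benjamini-Hochberg over the 18332 genes whose mean count reached 10. It compares these libraries and no conditions. Of all genes tested, 22.7% passed an adjusted p of 0.05, 12.5% with more counts in replicate 2 and 10.2% with more in replicate 1. Of genes with a mean count of at least 1000, as all 9 have, 41.8% passed. Scaling by spike-ins instead shifted the median log2 ratio of all genes to 0.11, from 0.0022, and 84.7% of its calls were higher in replicate 2, against 54.9% in the main scaling. Of the 9 genes, 7 passed (77.8%), 5 of them higher and 2 lower in replicate 2. A larger error removed most of those calls, since Slc2a1 alone passed edgeR's exact test when a coefficient of variation of 0.1 between biological samples was assumed (adjusted p = 0.049).

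Slc2a1 had the largest difference among the 9. It had 1690 counts in replicate 2 and 2557 counts in replicate 1, a log2 ratio of -0.74 (95% counting interval -0.83 to -0.65, binomial adjusted p = 1.9e-58). Of all tested genes, 92.9% had a smaller ratio in absolute value. That set includes genes with far fewer counts than Slc2a1, and genes of like depth were not compared alone. The direction was the same under every scaling and in the second transcript tables, where the log2 ratio was -0.67. Beside it, all 8 myelinating oligodendrocyte markers were lower in replicate 2, at a median of -1.12 on the log2 scale. So were all 5 choroid plexus markers at a median of -0.95, though Folr1 did not pass the test. All 5 tested red blood cell markers, at a median of -0.51, and all 3 tested thalamic markers, at -1.33, were lower as well. Their part in the result was not tested. Endothelial markers, of the cells in which GLUT1 is known to be most abundant, summed to 98.4 TPM in replicate 2 and 97.3 TPM in replicate 1. These sums cover opposite shifts. Of 6 endothelial genes 3 passed as higher in replicate 2, Cldn5 at 0.41, Pecam1 at 0.32 and Tek at 0.49. Ly6c1 at -0.57 and Slco1a4 at -0.33 passed as lower, and the median was 0.13. The part of endothelial cells was not tested.

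The ketone and monocarboxylate genes that passed the test were higher in replicate 2, by small amounts. Slc16a7 had 3729 counts in replicate 2 and 2865 in replicate 1, a log2 ratio of 0.24 (0.17 to 0.31, binomial adjusted p = 4.9e-10). Bdh1 had 3256 and 2617 counts in replicates 2 and 1, a log2 ratio of 0.18 (0.10 to 0.25, binomial adjusted p = 4.2e-05). Slc16a1 and Acat1 had log2 ratios of 0.14 and 0.12 (binomial adjusted p = 0.0016 and 0.019). Oxct1, with 12257 and 10778 counts in replicates 2 and 1, was at 0.05 (0.01 to 0.08) and did not pass (binomial adjusted p = 0.059). It passed with DESeq2 size factors (adjusted p = 0.0043), with spike-in scaling (adjusted p = 9.3e-15), among genes of mean count 50 or more and with the second tables (adjusted p = 2.7e-05). The median absolute log2 ratio of all tested genes was 0.14. Of those genes, 67.7% had a smaller absolute ratio than Slc16a7, 57.3% than Bdh1, 49.8% than Slc16a1 and 43.9% than Acat1. The tested set reaches down to a mean count of 10, where counting error is larger. Whether these sizes are usual among genes of like depth was not tested. Excitatory neuron markers had a median log2 ratio of 0.07, astrocyte markers 0.05 and microglia markers 0.14. Of the astrocyte markers 3 passed as higher in replicate 2 and 1 as lower, Aldoc at -0.10. Medians were 0.07 for inhibitory interneuron, 0.13 for endothelial, 0.05 for mural and 0.03 for oligodendrocyte precursor markers. They were -0.03 for ependymal and -0.06 for meningeal fibroblast markers. The part of these cell types was not tested.

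The lactate dehydrogenase subunits and Slc2a3 differed little. Ldha was higher in replicate 2, with 5639 counts in replicate 2 and 4654 in replicate 1 and a log2 ratio of 0.14 (0.08 to 0.19, binomial adjusted p = 2e-05). Ldhb was at 0.03 (-0.03 to 0.09, binomial adjusted p = 0.52), and at 0.14 with spike-in scaling (adjusted p = 4.5e-05). Slc2a3 had 4067 counts in replicate 2 and 3957 in replicate 1 and a log2 ratio of -0.10 (-0.16 to -0.04, binomial adjusted p = 0.013). The Slc2a3 call was lost with DESeq2 size factors (adjusted p = 0.052) and the second tables (adjusted p = 0.18), and spike-in scaling gave a log2 ratio of 0.0091 (adjusted p = 0.88).

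**Figure D4:**
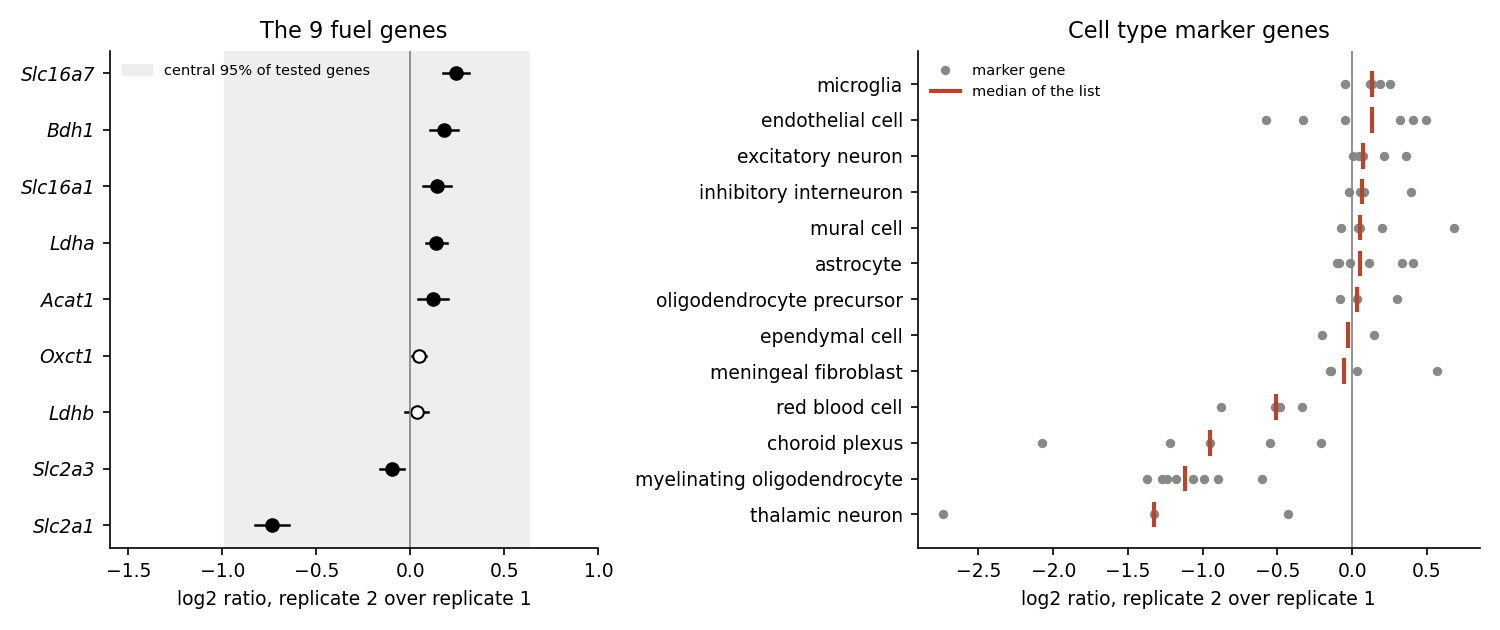
Log2 ratio of replicate 2 over replicate 1 for the 9 genes (left; lines are 95% counting intervals, filled points passed the test, the grey band holds the central 95% of tested genes from -0.99 to 0.63) and for marker genes of 13 lists (right; bars are list medians). Slc2a1 lies far left of the other 8, on the side of the myelin, choroid plexus, red blood cell and thalamic markers.

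Among 52 other genes of these routes, 41 could be tested and 10 passed, which is 24.4% against 22.7% of all genes, 4 higher and 6 lower in replicate 2. Their median log2 ratio was -0.03. With spike-in scaling 12 passed, 9 higher and 3 lower. None passed edgeR's exact test with biological variation of 0.1, where 173 of all genes did (1183 at an unadjusted p under 0.05). In the ketone list 2 of 7 tested genes were higher and none lower, Aacs at 0.17 and Slc16a6, whose zebrafish counterpart exports ketone bodies from liver, at 0.32. Of 4 tested monocarboxylate transport genes Bsg was higher, at 0.17. Of 2 tested dehydrogenases Ldhd was lower, at -0.48, a call that was lost with DESeq2 size factors, with spike-in scaling, without a count filter and in the second tables. Of 8 tested glucose carriers Slc2a13 was higher at 0.29 and Slc2a4 lower at -1.09, with 38 counts of Slc2a4 in replicate 2 and 74 in replicate 1. Of 14 pyruvate genes 3 were lower and none higher, but spike-in scaling lost Mpc1 and Pdk2 and added Dlat, Pdha1 and Pdk1 as higher. They were the carrier subunit Mpc1 at -0.18, Pdk2, a kinase that switches pyruvate dehydrogenase off, at -0.20, and Pdp1, a phosphatase that switches it on, at -0.32. The second tables also lost Mpc1. Of 6 tested fuel sensing genes Ppara, the fatty acid receptor that drives ketone body synthesis in fasted liver, was lower at -0.81. It had only 54 counts in replicate 2 and 86 in replicate 1.

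Transcripts of a gene were read from 2 quantifications of the same libraries, a first table in the layout of RSEM and a second in the layout of kallisto. The number annotated per gene ran from 1 for Slc16a1 to 15 for Ldha. A single transcript held over 50% of the TPM of 7 of the 9 genes in the first tables, and the second tables had the same leading transcript for 6. The exceptions were Bdh1, Slc16a7 and Ldha.

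Ldha was the clearest case. In the first tables Ldha-202 held 97.4% of the gene's TPM in replicate 2 and 95.2% in replicate 1, on 5566 and 4530 counts, and Ldha-201 had 0 counts in both. In the second tables Ldha-201 led, with 3851 counts in replicate 2 and 2997 in replicate 1, and Ldha-202 had 1970 and 1893. Yet the gene's totals were alike, at 5639 and 4654 counts in the gene tables and 5914 and 4945 in the second tables, replicate 2 before replicate 1 in each.

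The transcripts differ in where they start. Ldha-202 begins at 46845839 on chromosome 7 and Ldha-201 at 46847131, and both carry the same 996 coding bases, so the choice between them does not alter the protein. They have 1479 stretches of 31 bases in common, while 257 occur in Ldha-201 and not in Ldha-202, and 79 in Ldha-202 and not in Ldha-201. Transcripts that begin at the upstream start held 98.8% of Ldha counts in replicate 2 and 97.5% in replicate 1 in the first tables, against 33.6% and 38.4% in the second. Which start the hippocampus uses therefore cannot be read from these tables.

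The start regions of Ldha and Slc2a1 are shown, since Ldha transcripts are divided between its starts and Slc2a1 differed most between libraries. Each runs from 250 bases before to 50 bases after a RefSeq start (GRCm38.p6, plus strand). RefSeq windows were matched by symbol for 6 of the 9 genes, without Acat1, Slc16a7 and Slc2a3. Capitals mark ACGTG on either strand and its overlap CACGTG, an E-box. ACGTG is a form of the core of the hypoxia response element, through which HIF-1 acts on glycolytic genes. The other form, GCGTG, was neither marked nor counted, though it occurs in each window shown when both strands are read. The upstream Ldha window is chr7:46845554-46845853, the downstream Ldha window chr7:46846832-46847131 and the Slc2a1 window chr4:119108495-119108794.
Ldha upstream: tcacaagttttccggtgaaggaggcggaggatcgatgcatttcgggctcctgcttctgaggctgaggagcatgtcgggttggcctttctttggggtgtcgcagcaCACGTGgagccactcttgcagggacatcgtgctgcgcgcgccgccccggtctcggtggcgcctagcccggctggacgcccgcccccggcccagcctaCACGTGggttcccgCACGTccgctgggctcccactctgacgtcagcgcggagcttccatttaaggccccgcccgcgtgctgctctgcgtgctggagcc
Ldha downstream: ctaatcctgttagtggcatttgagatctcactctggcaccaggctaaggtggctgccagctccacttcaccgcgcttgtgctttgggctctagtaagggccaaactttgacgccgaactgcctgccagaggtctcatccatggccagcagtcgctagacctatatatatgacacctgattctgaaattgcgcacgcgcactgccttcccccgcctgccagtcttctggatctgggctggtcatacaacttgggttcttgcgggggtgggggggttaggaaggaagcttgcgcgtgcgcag
Slc2a1: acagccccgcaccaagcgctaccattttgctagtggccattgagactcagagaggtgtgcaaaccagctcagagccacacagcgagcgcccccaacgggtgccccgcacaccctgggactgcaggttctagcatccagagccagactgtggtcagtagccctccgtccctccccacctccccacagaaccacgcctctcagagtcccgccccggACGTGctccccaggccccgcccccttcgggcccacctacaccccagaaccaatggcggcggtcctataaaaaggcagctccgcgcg
ACGTG occurs 5 times in the upstream Ldha window, counting both strands, and 4 of those matches form 2 copies of CACGTG. The downstream window holds no match of ACGTG. Its GC content is 56.7% with 13 CG pairs, against 67.3% with 30 CG pairs upstream. The Slc2a1 window holds 1 match of ACGTG and 1 of TATAAA, the TATA box. Among all 32851 RefSeq windows of 300 bases, 19.6% hold ACGTG, 7.15% hold CACGTG and 13.6% hold TATAAA on either strand, so the letters alone are common.

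In the first tables the counts of Slc2a1 differed between the libraries mainly in its full-length coding transcript. Slc2a1-201 had 1146 counts in replicate 2 and 2008 in replicate 1, a log2 ratio of -0.95, and Slc2a1-204, annotated as a target of nonsense-mediated decay, had 533 and 527, a ratio of -0.12. The share of Slc2a1-201 in the gene's TPM was 57.3% in replicate 2 and 68.5% in replicate 1. In the second tables that share hardly changed, at 35.5% in replicate 2 and 35.8% in replicate 1. Slc2a1-203 had 61.6 and 174 counts there, and Slc2a1-202 had 29.1 and 0. Of stretches of 31 bases, 29 occur in Slc2a1-204 and not in Slc2a1-201, and 1048 the other way round. The posterior SD of Slc2a1-204 was 57.5 counts in replicate 2 and 72.0 in replicate 1. In the second tables Slc2a1-201 had 1023 and 1666 counts in replicates 2 and 1, a ratio of -0.79, and Slc2a1-204 had 648 and 797, a ratio of -0.39. Slc2a1-201 was lower in replicate 2 in both quantifications.

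**Figure D5:**
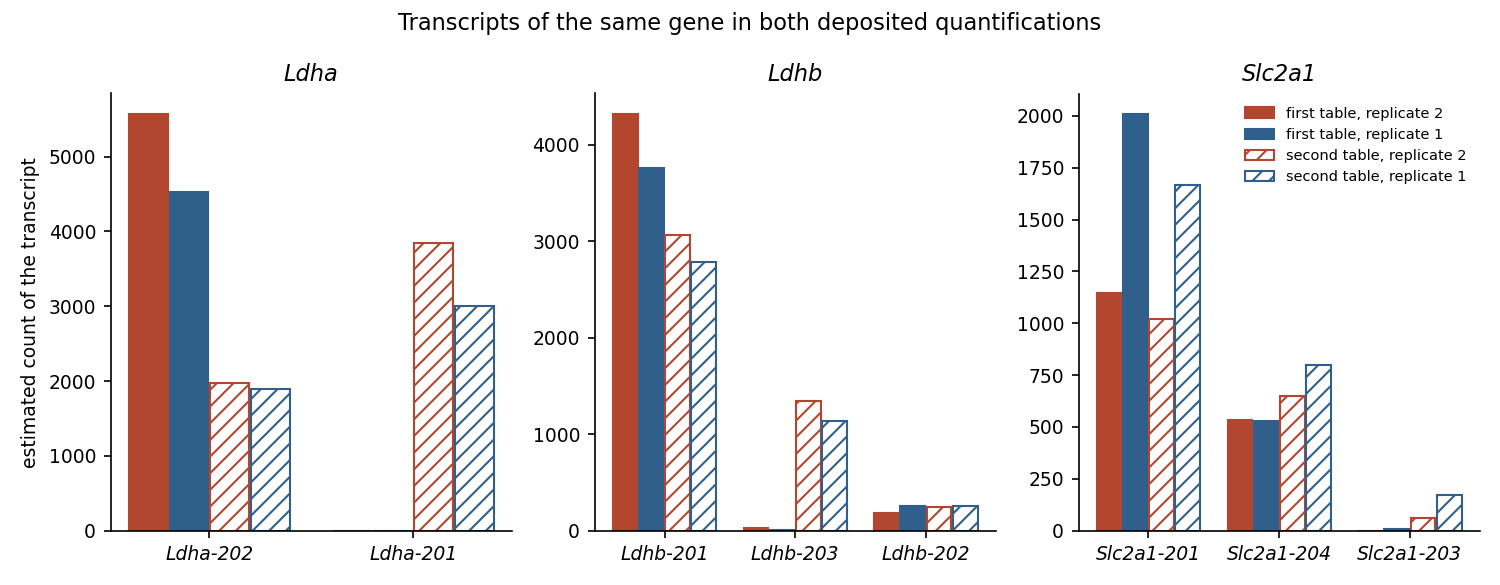
Estimated counts of the main transcripts of Ldha, Ldhb and Slc2a1 in each library (red, replicate 2; blue, replicate 1), in the first (filled) and second (hatched) transcript tables. Ldha-201 and Ldhb-203 have bars of any size only in the second tables, while Slc2a1-201 is lower in replicate 2 in both.

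Ldhb-201 held 85.5% of Ldhb TPM in replicate 2 and 80.0% in replicate 1 in the first tables. It held 41.1% and 40.3% in the second. Ldhb-203, which lacks part of the coding sequence, had 24.8 and 10.3 counts in replicates 2 and 1 in the first tables but 1341 and 1134 in the second. Oxct1-201 held 64.0% of Oxct1 TPM in replicate 2 and 71.5% in replicate 1, on 11327 and 10166 counts. The rest went to short noncoding transcripts, led by Oxct1-203 on 613 and 396 counts, and TPM divides by length. Bdh1-205, a retained intron fragment of 438 bases, likewise took 31.9% of Bdh1 TPM in replicate 2 and 29.5% in replicate 1 on 249 and 174 counts, and it had 1.14 and 3.33 counts in the second tables. Bdh1-203, with the full coding sequence, took 30.2% and 34.6% on 2105 and 1818 counts.

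In the first tables Acat1-201 held 92.1% of Acat1 TPM in replicate 2 and 84.8% in replicate 1. The second tables gave it 54.8% and 50.2%. There the noncoding Acat1-203 of 500 bases held 44.5% and 49.0% on 115 and 116 counts. Slc2a3-201 held 85.7% and 84.4% of Slc2a3 TPM in the first tables, and 72.3% and 72.9% in the second. For Slc16a7 in the first tables, the long transcript Slc16a7-206 of 10981 bases held 40.2% in replicate 2 and 45.7% in replicate 1. These shares rested on 3081 and 2408 counts. Slc16a7-205, with the same coding exons but 2562 bases, held 33.9% and 36.0%, but 0.67% and 1.11% in the second tables. Slc16a7-204, of 711 bases, had the highest mean share there, at 40.9% against 37.8% for Slc16a7-206. When TPM was summed over coding transcripts alone, the log2 ratio of Slc2a3 to Slc2a1 was 1.02 ± 0.65 and that of Oxct1 to Bdh1 was 1.27 ± 0.16.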

How the data were processed

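Expected counts deposited by the authors are estimated reads per gene or transcript, without normalisation. TPM deposited by the authors is length-scaled and sums over every entry, spike-ins among them. The percent of gene TPM held by a transcript, and the posterior SD, a spread in reads listed here as a signal, come from the deposited tables per the file headers. Transcript values exist in 2 layouts, of RSEM and of kallisto, per the file headers. Build mm10 and GENCODE M21 are given per the labels and the deposited notes. For aligner, quantifier versions and settings, nothing is given in the sources used here.

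Counts were rounded, scaled by TMM (edgeR 4.0.16, R 4.3.3) and compared with an exact two-sided binomial test (scipy 1.17.1, prior count 0.5, Benjamini-Hochberg adjustment). Library totals were 31755544 in replicate 2 and 29144848 in replicate 1. Entries that named no gene held 9.4e-06% and 2.67e-05% of them and were left out with the spike-ins. P-values measure only the spread of counts between these libraries. Pair ratios used a pseudocount of 0.01 TPM and have no p-value, since 2 libraries allow a sign-flip test no exact p under 0.5. DESeq2 1.42.0 size factors, spike-in scaling, other count filters, the second tables, posterior mean TPM and edgeR's exact test were alternatives. Intervals cover counting error. Stretches of 31 bases and coding identity were computed from GENCODE M21 transcripts, with Biopython 1.88 for the alignments.

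Members, gene lists and tests were chosen with earlier results of these data known. The text names all 9 genes, of each route list the genes past the test and up to 4 of the highest, and genes under 1 TPM. Genes chosen as partners in ratios are also named, and the pseudogenes were chosen after their values were seen. Some genes of the route lists and a stretch of sequence are not reported here.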

Additional observations from a re-analysis of the deposited data

How the results depend on the processing

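The count of the 9 genes that differed between libraries was 7, and it stayed between 7 and 8 with DESeq2 size factors, spike-in scaling, both count filters and the second tables. Under edgeR's exact test with biological variation of 0.1 it was 1, and the count over all genes was 173 instead of 4167. Spike-in scaling gave 6516 over all genes and put Slc2a3 at 0.0091 instead of -0.10. Those tests assume different amounts of error or library size. Slc2a1 passed under every one of these settings, with log2 ratios between -0.74 and -0.63.

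The second transcript tables gave log2 ratios of 0.84 for Ldhb to Ldha, which then was set apart, and 0.15 for Slc16a7 to Slc16a1, which changed sign. Coding transcripts alone, an alternative chosen after seeing the data, gave -0.43 for Slc2a1 to Slc16a1. The cause was not tested. The other ratios kept their sign and their side of the rule under these tables, posterior mean TPM and a pseudocount of 1. Leaving out a library left a single value per ratio and no test, and Slc2a1 to Slc16a1 was then -0.27 without replicate 1 and 0.56 without replicate 2. Levels rescaled to protein-coding genes ran from 63.4 TPM for Slc16a7 to 499 TPM for Oxct1, in the same order.

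No paired analysis was possible because the labels give a single group. Depth is not what limits the 9 genes, each with over 1000 counts per library. It limits Slc16a3, Slc2a4, Ppara and the fuel receptors.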
